A study of Mus musculus with 45 samples.

Results

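Cytochrome P450 transcripts were followed in the translatome of kidney tubules from 45 mice. The group comprised 10 genes fixed by name: Cyp4a10, Cyp4a12a, Cyp4a14, Cyp4b1, Cyp2e1, Cyp2j5, Cyp2j13, Cyp2d9, Cyp7b1 and Cyp2a4. The choice was made with earlier results of these data known. They are 10 of the 55401 genes counted, and 121 other genes have a symbol that starts with Cyp and a digit. All 10 were present in the deposited counts and in the TPM tables of both sexes. Translating ribosome affinity purification (TRAP) isolates ribosomes through an EGFP tag on their L10a protein, and the mRNA bound to them is sequenced. In these mice the tag was switched on together with gene deletion, in cells where the Pax8rtTA and TetOCre transgenes were active, which are epithelial cells of the nephron tubule.

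Every mouse carried RosaEGFP-Rpl10a, Pax8rtTA and TetOCre, and every mouse was given doxycycline from postnatal day 28 to 42 and was examined at day 49, when it was 7 weeks old. Noncystic mice were Pkd1fl/+, so they too lost an allele of Pkd1 in the tagged cells, and the labels call them wild type. Pkd1KO mice were Pkd1fl/fl, a model of polycystic kidney disease. Pkd1KO+ciliaKO mice were Pkd1fl/fl and Kif3afl/fl, which removes polycystin-1 and the primary cilium together. Males numbered 8 noncystic, 7 Pkd1KO and 9 Pkd1KO+ciliaKO, and females 7, 8 and 6. Each library has an animal number of its own in the labels.

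Cytochrome P450 enzymes are haem proteins that insert oxygen into lipids, steroids and foreign compounds, with electrons passed on by the reductase Por. In the kidney, Cyp4a enzymes hydroxylate the tail of fatty acids, and Cyp4a12a is the main source of the vasoconstrictor 20-hydroxyeicosatetraenoic acid in mice. Enzymes of the Cyp2j family turn arachidonic acid into epoxides that relax vessels and promote sodium loss. The proximal tubule is the main site of these enzymes, and several are known to differ between male and female rodents through androgen and growth hormone.

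The libraries held 80874556 to 132958186 counted fragments per mouse, so a count of 0 would allow a level of up to 0.0232 to 0.0384 CPM (fragment counts relative to the TMM-scaled library size), depending on the library and for counting error only. Levels below are such CPM unless TPM is named. Proximal tubule markers were abundant in every mouse, with 2319 to 6542 CPM of Lrp2 and 986 to 3171 CPM of Slc34a1. The 6 hepatocyte markers differed widely in level. Cyp7a1 was at 0 in all 45 libraries and Cyp8b1 at 0 to 0.107 CPM. Apoa2 was at 0.114 to 6.66 CPM, Alb at 0.397 to 9.64, Ttr at 3.11 to 64.5 and Serpina1a at 0.604 to 68.1. All 6 hepatocyte markers summed to 43 to 76.2 CPM in noncystic males and to 18.7 to 37.3 CPM in noncystic females, and Serpina1a and Ttr of this list passed the test between them, with log2 fold changes of 2.50 and 1.13 toward males.

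Several libraries stood apart. On the first principal component of 16070 protein-coding genes other than Cyp genes, which held 39.2% of the variance, the 21 females scored -30.2 to -15.9 and 20 of the 24 males 13 to 34.9. Pkd1KO+ciliaKO males 6 and 8 scored -17.4 and -17.8, within the female range. Noncystic male 3 scored -2.44 and Pkd1KO male 4 scored 8.9, so the latter lay only just under the other males. These 4 libraries carried 133 to 203 CPM of 4 Y chromosome genes summed, and all 24 males had 120.2 to 203. Noncystic male 3 and Pkd1KO+ciliaKO males 6 and 8 have animal numbers in the labels below those of all other libraries, and Pkd1KO male 4 does not. What the numbers stand for is not given, and their part was not tested. Kif3a, the gene deleted to remove cilia, went against the label in 2 females. It was at 6.72 CPM in the library labelled noncystic female 5, whose group median was 23.8. In the library labelled Pkd1KO+ciliaKO female 6 it was at 20.5, where the group median was 7.71. The proximal tubule marker Slc5a2 also went against the label in both. It was at 6.92 CPM in noncystic female 5 (group median 78.6) and 66.4 in Pkd1KO+ciliaKO female 6 (group median 4.07). Results of the tests that these 6 libraries change are given with and without them.

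The promoters below are shown because they set Cyp2a4 beside its close relative Cyp2a5, whose level did not follow it in 3 mice described below, and because Cyp4b1, Cyp2j13 and Cyp2j5 are higher in males by unequal amounts. Each is the 250 bases before the transcription start in RefSeq (build GRCm38.p6), 5′ to 3′ on the gene's own strand. Capitals mark matches, on either strand, to TATAAA (the TATA box), to TTCNNNGAA (read by Stat factors), to AGAACA (read by steroid receptors), to AGGTCA (read by nuclear receptors) or to GTTAAT (read by Hnf1 factors). Cyp2a4 lies at chr7:26306942-26307191 on the + strand, Cyp2a5 at chr7:26835089-26835338 on the + strand, Cyp4b1 at chr4:115647722-115647971 on the - strand, Cyp2j13 at chr4:96077541-96077790 on the - strand and Cyp2j5 at chr4:96664120-96664369 on the - strand.
Cyp2a4: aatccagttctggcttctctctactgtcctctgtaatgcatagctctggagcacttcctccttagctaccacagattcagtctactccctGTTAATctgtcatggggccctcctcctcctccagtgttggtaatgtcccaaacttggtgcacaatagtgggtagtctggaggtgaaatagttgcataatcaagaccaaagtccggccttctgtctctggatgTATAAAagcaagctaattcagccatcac
Cyp2a5: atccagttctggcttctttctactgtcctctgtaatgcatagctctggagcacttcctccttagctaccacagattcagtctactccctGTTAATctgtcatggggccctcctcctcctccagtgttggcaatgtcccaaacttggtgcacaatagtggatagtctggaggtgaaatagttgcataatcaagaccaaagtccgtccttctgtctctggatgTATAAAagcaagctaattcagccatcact
Cyp4b1: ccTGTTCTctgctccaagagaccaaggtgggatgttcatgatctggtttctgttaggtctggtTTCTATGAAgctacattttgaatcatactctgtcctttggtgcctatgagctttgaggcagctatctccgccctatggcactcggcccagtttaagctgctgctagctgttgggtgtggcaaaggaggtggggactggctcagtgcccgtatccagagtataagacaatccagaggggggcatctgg
Cyp2j13: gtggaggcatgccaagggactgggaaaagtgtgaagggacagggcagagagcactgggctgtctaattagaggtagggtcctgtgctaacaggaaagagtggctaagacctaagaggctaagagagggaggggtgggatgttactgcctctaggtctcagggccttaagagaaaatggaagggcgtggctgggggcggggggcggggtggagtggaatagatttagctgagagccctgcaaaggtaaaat
Cyp2j5: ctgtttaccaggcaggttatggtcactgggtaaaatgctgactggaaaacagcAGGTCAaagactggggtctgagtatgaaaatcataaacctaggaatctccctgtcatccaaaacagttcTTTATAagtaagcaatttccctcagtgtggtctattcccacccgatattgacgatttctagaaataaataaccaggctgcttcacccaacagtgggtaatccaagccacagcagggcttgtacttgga

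The Cyp2a4 and Cyp2a5 promoters differed at 4 of 249 aligned bases, and both held TATAAA and GTTAAT. Among 27025 mouse promoters of the same length, 13% held TATAAA and 6.52% held GTTAAT. Cyp4b1 held TTCNNNGAA, found in 7.18% of all promoters, and AGAACA, found in 16.2%. Cyp2j5 held AGGTCA, found in 13.8%, and TATAAA 128 bases before the start. None of the 5 motifs was in the Cyp2j13 window. Of the 10 genes, 6 had a promoter in the table, and 4 of these held TATAAA (Cyp2j5, Cyp2a4, Cyp2e1 and Cyp2d9). A match is a string of letters and not a shown binding site.

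The genes lie in few places on GRCm38. Cyp4a12a (115299046 to 115332815), Cyp4a14 (115486200 to 115496142), Cyp4a10 (115518264 to 115533649) and Cyp4b1 (115624725 to 115647723) follow each other on chromosome 4. Cyp2j13 (96027534 to 96077546) and Cyp2j5 (96628773 to 96664154) lie elsewhere on the same chromosome. Cyp2a4 (26307169 to 26315088) and Cyp2e1 (140763739 to 140774987) are on chromosome 7, Cyp2d9 (82433437 to 82456845) is on chromosome 15 and Cyp7b1 (18071950 to 18243338) is on chromosome 3. Near-identical copies limit some counts: of all windows of 150 bases in the Cyp4a12a transcript, 25.6% also occur in Cyp4a12b, and the shared part was 4.34% for Cyp4a10 (with Cyp4a31 and Cyp4a32), 4.22% for Cyp2a4 (with Cyp2a5), 1.54% for Cyp2d9 and 0 for the other 6. Cyp2j13, Cyp2d9, Cyp7b1 and Cyp2a4 overlap another annotated gene, and whether the counting used strand is not given in the sources used here.

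Per transcript length, these 10 genes made up most of the P450 mRNA of male tubules. They took a median of 84.2% of all Cyp TPM in noncystic males (69.7% to 86.6%, n = 8) and 56.4% in noncystic females (54.5% to 59.3%, n = 7). The TPM of all Cyp genes summed to a median of 6119.8 in noncystic males and 2687 in noncystic females, each read from the table of its own sex. In noncystic males the order of these 10 genes began with Cyp4b1 (median 1615 TPM, 300.0 to 2101), Cyp2e1 (1411, 431 to 2428) and Cyp2j5 (1324, 953 to 1669), whose ranges overlap widely. Cyp4a10 followed with 234 TPM (183 to 349), below the whole range of Cyp2j5. Then came Cyp2a4 (163), Cyp2j13 (124), Cyp4a12a (78.6), Cyp2d9 (65), Cyp7b1 (46.4) and Cyp4a14 (16.3), and from Cyp4a10 on each gene overlapped the next. Outside the 10 genes, Cyp4a31 (255) and Cyp2j11 (254) had medians above that of Cyp4a10.

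In noncystic females the order of the 10 genes was another one. Cyp2j5 led with a median of 660.3 TPM (616 to 824) and did not overlap Cyp4a10, which came next with 301 (248 to 356). Cyp4a10 in turn lay above Cyp4a14 (159, 131 to 203), which overlapped Cyp2e1 (133, 114 to 247) and Cyp2a4 (113, 48.7 to 135). Cyp4b1, which had the highest median in noncystic males, stood at 35.1 TPM in females, Cyp2d9 at 13.7, Cyp7b1 at 2.84, Cyp2j13 at 0.659 and Cyp4a12a at 0.177. Outside the 10 genes, Cyp2j11 (231), Cyp2d26 (212), Cyp51 (201) and Cyp4a31 (192) had medians between those of Cyp4a10 and Cyp4a14.

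**Figure D1:**
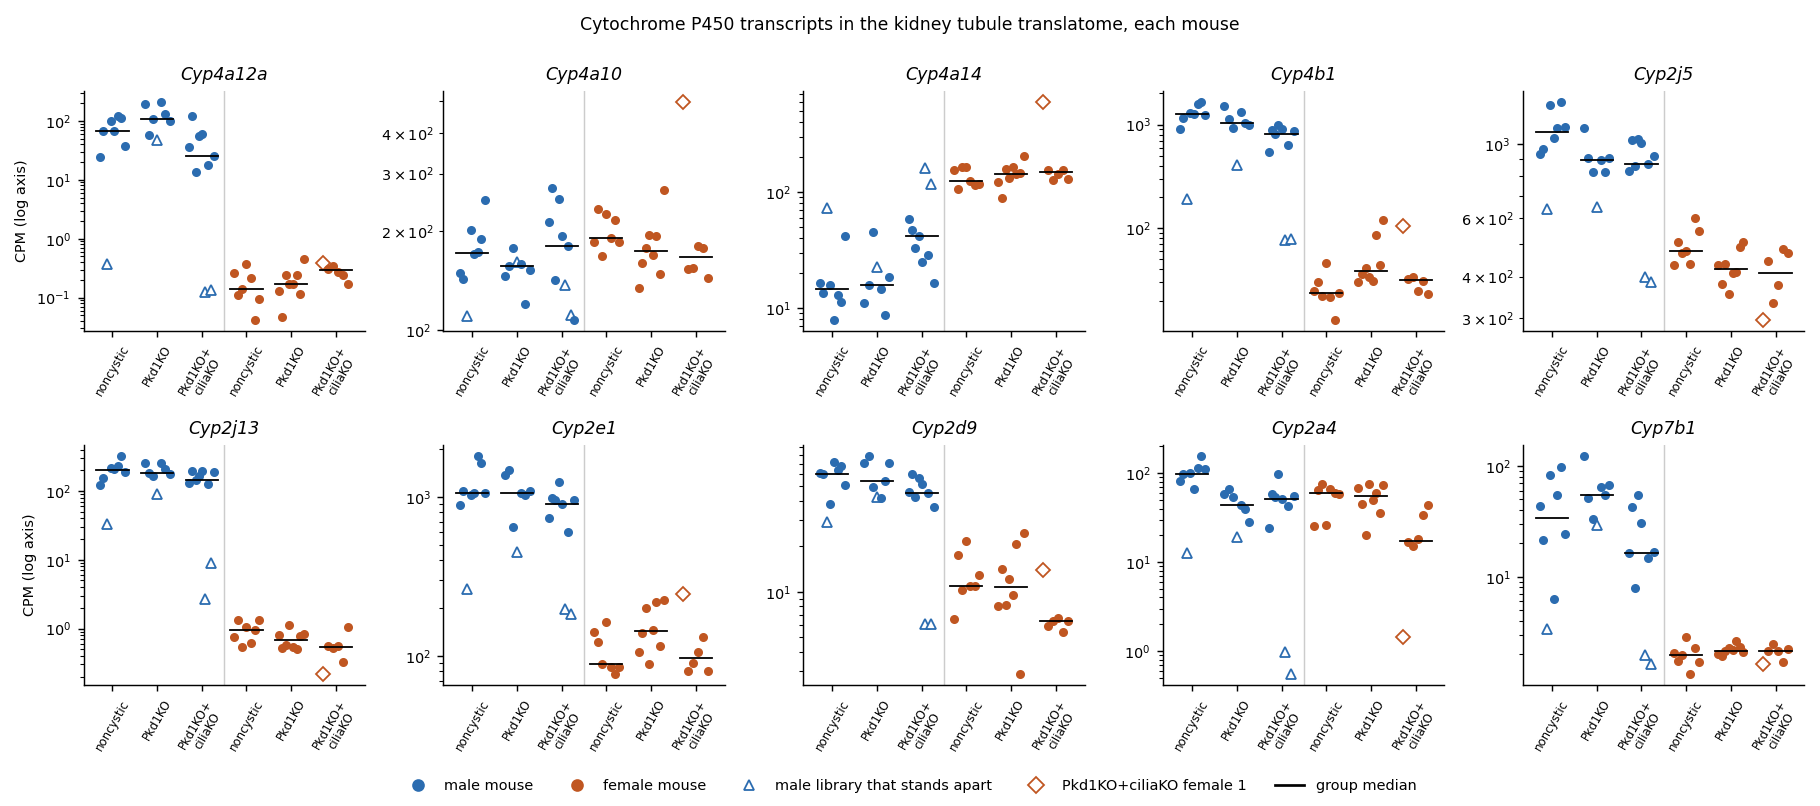
CPM of each of the 10 genes (log axis) in every mouse by genotype and sex; points are mice, lines are group medians, open triangles are the 4 males that stand apart and the open diamond is Pkd1KO+ciliaKO female 1. Cyp4a12a, Cyp4b1, Cyp2e1, Cyp2j5, Cyp2j13, Cyp2d9 and Cyp7b1 are higher in males, Cyp4a14 is higher in females, and the triangles fall toward or into the female range.

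Most of these enzymes differed between the sexes. Males against females of the same genotype were tested by quasi-likelihood in edgeR, and p-values were adjusted by Benjamini-Hochberg over 16131 genes. In noncystic mice 8 of 10 genes passed an adjusted p of 0.05, where 27.3% of all genes did: 7 were higher in males (15.2% of all genes) and 1 in females (12.1%). In Pkd1KO mice the counts were again 7 and 1, where 13.9% and 13.2% of all genes were called (27.1% in all). In Pkd1KO+ciliaKO mice they were 7 and 1, where 8.23% and 6.33% of all genes were called. The median log2 fold change of the 10 genes in noncystic mice was 2.72 toward males, and that of all genes tested was -0.01. Every one of the 8 genes had the same direction in all 3 genotypes. Markers of the S3 segment of the proximal tubule moved with sex in their sum, the 5 genes (2 called higher and 1 lower in males) adding up to 2692 to 4254 CPM in noncystic males and 1059 to 1797 in noncystic females, and their part was not tested. In these bulk libraries, fewer cells that express a gene and less mRNA per cell cannot be told apart.

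Cyp4a12a had the largest difference of the fatty acid hydroxylases. Noncystic males had 0.373 to 121 CPM with a median of 67.8, and noncystic females had 0.0413 to 0.378 with a median of 0.138. Only noncystic male 3, at 0.373, fell among the females. The log2 fold change was 8.56 (standard error 0.899, adjusted p = 2.27e-06 from edgeR) in noncystic mice and 9.25 (0.449, adjusted p = 3.68e-10) in Pkd1KO mice, where all 7 males (46.4 to 212 CPM) lay above all 8 females (0.0475 to 0.449 CPM). In Pkd1KO+ciliaKO mice, where the sexes overlap, it was 6.95 (1.22, adjusted p = 0.00146). With 25.6% of its windows shared, part of the low female count could not be assigned between Cyp4a12a and Cyp4a12b.

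Cyp4b1, which hydroxylates short and medium fatty acids and activates some foreign compounds, came next among the Cyp4 genes. Its levels were 193 to 1668 CPM in noncystic males (median 1253) and 12.9 to 46.5 in noncystic females (median 23.7), with no overlap. The log2 fold change was 5.49 (standard error 0.403, adjusted p = 4.16e-08 from edgeR), 4.30 in Pkd1KO mice and 3.93 in Pkd1KO+ciliaKO mice. Cyp4a14, a fatty acid hydroxylase induced through Ppara, ran the other way: noncystic males had 7.84 to 72.2 CPM (median 14.7) and noncystic females 106 to 166 (median 125). All females lay above all males in noncystic and in Pkd1KO mice, and the log2 fold changes were -2.50 (standard error 0.395, adjusted p = 0.000158 from edgeR), -2.91 and -1.90 in the 3 genotypes.

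Cyp4a10, which shares that regulation and lies next to Cyp4a14, did not pass the test in any genotype. It had 110.1 to 249 CPM in noncystic males (median 172) and 168 to 234 in noncystic females (median 191). The ranges overlap, and the log2 fold change of -0.20 had an interval of 2 standard errors either way from -0.47 to 0.06 (adjusted p = 0.282 from edgeR). The interval of Cyp4a14 in the same mice, from -3.29 to -1.71, does not meet it.

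The 2 Cyp2j genes differed between the sexes by very different amounts. Cyp2j13, which oxidizes arachidonic acid, had 33.7 to 327 CPM in noncystic males (median 199.7) and 0.53 to 1.34 in noncystic females (median 0.961). The lowest male lay above the highest female in all 3 genotypes, also in Pkd1KO+ciliaKO mice, where male 6 had 2.67 CPM and the highest female 1.05 (0.559 without the library labelled female 6). The log2 fold changes were 7.64 (standard error 0.441, adjusted p = 3.23e-09 from edgeR) in noncystic, 8.04 in Pkd1KO and 7.89 in Pkd1KO+ciliaKO mice. Cyp2j5, the main epoxygenase of the mouse proximal tubule, was expressed in both sexes, at 637 to 1338 CPM in noncystic males (median 1081) and 434 to 600.1 in noncystic females (median 479). Its log2 fold changes were 1.10 (standard error 0.133, adjusted p = 9.72e-06 from edgeR), 1.02 and 1.00.

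Cyp2e1 oxidizes ethanol and other small molecules. Its levels were 265 to 1817 CPM in noncystic males (median 1056) and 76.7 to 164 in noncystic females (median 89.3), and the log2 fold change was 3.35 (standard error 0.321, adjusted p = 7.59e-07 from edgeR). Groups did not overlap in noncystic or in Pkd1KO mice. Cyp2e1 is also a liver gene, and the summed hepatocyte markers given above were higher in noncystic males too. Of these markers Serpina1a and Ttr were called higher in males, and Cyp7a1 was at 0. Their part in the result was not tested.

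Among the steroid-metabolizing enzymes, Cyp7b1, which hydroxylates oxysterols, was at 3.37 to 98.7 CPM in noncystic males (median 33.7) and 1.31 to 2.85 in noncystic females (median 1.97). Among noncystic males other than male 3 it ran from 6.32 in male 5 to 98.7 in male 7, the widest ratio of highest to lowest of the 10 genes. Its log2 fold change was 4.41 (standard error 0.607, adjusted p = 3.84e-05 from edgeR). Cyp2d9, a testosterone hydroxylase of male liver, was at 28.9 to 72 CPM in noncystic males (median 60.2) and 6.57 to 21.7 in noncystic females (median 11). Its log2 fold change was 2.09 (standard error 0.239, adjusted p = 5.51e-06 from edgeR), beside 2.22 in Pkd1KO and 2.36 in Pkd1KO+ciliaKO mice.

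Cyp2a4, a steroid hydroxylase, did not pass with all mice. It had 12.5 to 157 CPM in noncystic males (median 98.8) and 25.5 to 75.2 in noncystic females (median 59.6), and male 3 alone lay below the females. The log2 fold change of 0.80 (interval 0.08 to 1.53) had an adjusted p of 0.109 from edgeR. Without noncystic male 3 it was 0.95 and passed with an adjusted p of 0.00511. In Pkd1KO+ciliaKO mice it was 0.97 (adjusted p = 0.445) with all mice and 1.33 (adjusted p = 0.0483) without males 6 and 8, and in Pkd1KO mice it was -0.28 (adjusted p = 0.507) with all mice and -0.14 (adjusted p = 0.718) without male 4. The males left out had been set apart on a component that separates the sexes, so these fits are not an independent test of a sex difference. The differences between these genotypes in the sex effect did not pass the interaction test described below.

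**Figure D2:**
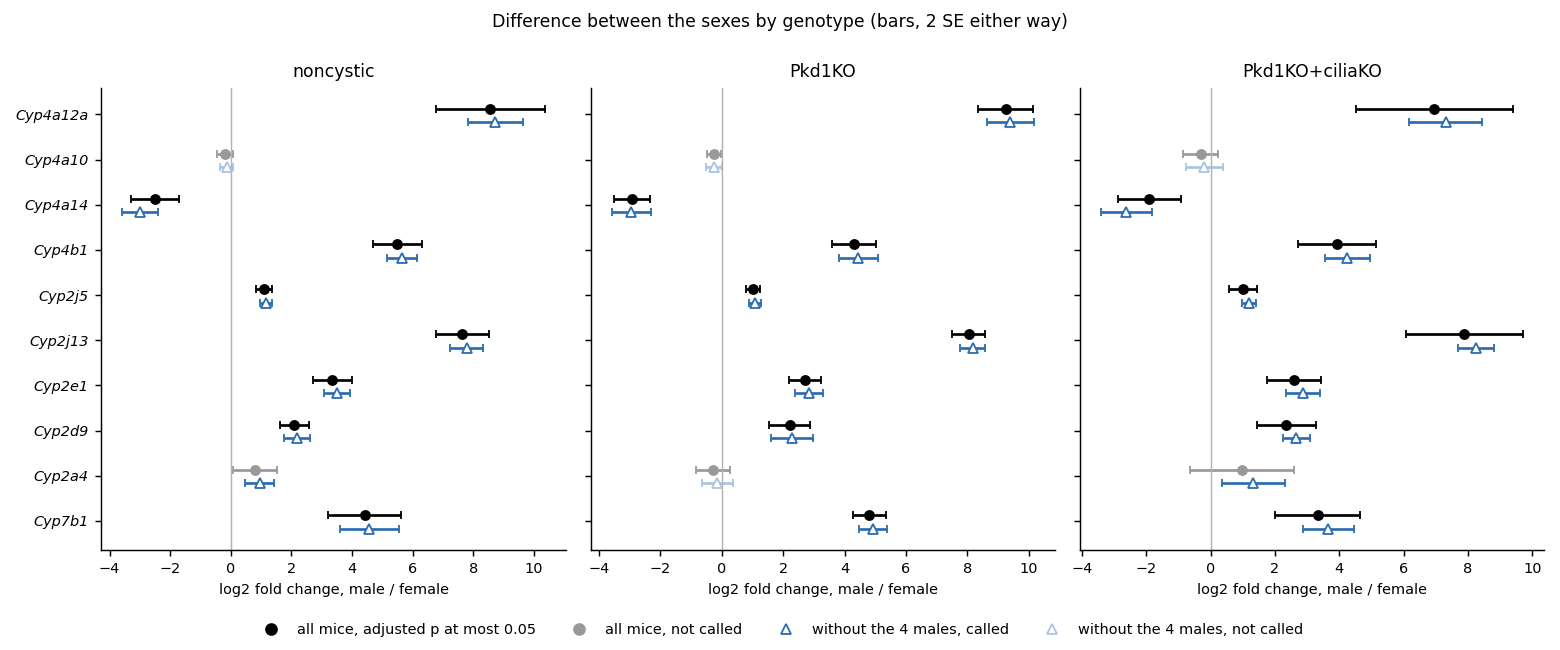
Log2 fold change of males over females for each gene (horizontal axis) in the 3 genotypes, with bars of 2 standard errors either way; circles are fits of all mice and triangles are fits without the 4 males that stand apart. Cyp4a12a and Cyp2j13 lie farthest to the male side, near 7 to 9, Cyp4a14 lies on the female side, and Cyp4a10 stays next to 0.

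Whether the sex effect differed between genotypes was tested as an interaction in 1 fit of all 45 mice. None of the 10 genes passed in any of the 3 contrasts with edgeR, where 0.0124%, 0.223% and 0.031% of all genes did, and at an unadjusted p under 0.05 the counts were 0, 0 and 1. That gene was Cyp4b1, whose male excess was lower by 1.53 on the log2 scale in Pkd1KO+ciliaKO than in noncystic mice (interval -2.73 to -0.33, adjusted p = 0.736). The widest interval was that of Cyp4a12a between Pkd1KO and noncystic mice, from -1.94 to 3.38, so these data do not bound a difference in its sex effect closely.

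The 4 males that stand apart had female-like levels of the enzymes to differing degrees. Cyp4a12a was at 0.373 CPM in noncystic male 3, 46.4 in Pkd1KO male 4, 0.123 in Pkd1KO+ciliaKO male 6 and 0.133 in Pkd1KO+ciliaKO male 8. The last 2 values lie below the lowest Pkd1KO+ciliaKO female (0.172, or 0.238 without the library labelled female 6), while Pkd1KO male 4 lay far above all females. Cyp4a14 was at 72.2, 22.4, 162 and 117 CPM in the same order, and the other 20 males had 7.84 to 58.9. Cyp7b1 was at 3.37, 29.6, 1.98 and 1.61 CPM, Cyp4b1 at 193, 405, 77.3 and 79.1, and Cyp2j5 at 637, 646, 399.6 and 385. For Cyp2j5, Pkd1KO+ciliaKO males 6 and 8 thus fell inside the range of the Pkd1KO+ciliaKO females (296 to 485). Without these 4, males and females of all genotypes pooled did not overlap in 8 of the 10 genes, beside 2.56% of all genes tested, and Cyp4a10 and Cyp2a4 overlapped. These 4 were set apart on a component that separates the sexes, and the 10 genes were chosen with earlier results of these data known. That count is therefore a description and not a test.

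Cyp2a4 in these males did not stop at the female level. Pkd1KO+ciliaKO males 6 and 8 had 0.965 and 0.546 CPM, the other 7 males of the group 24 to 98.8, and females of all genotypes 15.2 to 75.6 apart from Pkd1KO+ciliaKO female 1 at 1.43. Those 3 mice of 1 genotype stood well below all others of their group. Cyp2a5, whose promoter and transcript are nearly the same (98.3% identity over the transcript), was at 19.3, 14.2 and 37.2 CPM in these 3 mice, within the 4.13 to 61.3 of all 45. The 7 male-biased tubule genes summed to 3357 and 3601 CPM in Pkd1KO+ciliaKO males 6 and 8, where the group ran up to 23194 and Pkd1KO+ciliaKO females had 2603 to 7063 (up to 5180 without the library labelled female 6). This sum is mostly Kap, which was at 2855 CPM in male 6. In the group Kap had a median of 15508 CPM, where the sum had one of 17842.

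**Figure D3:**
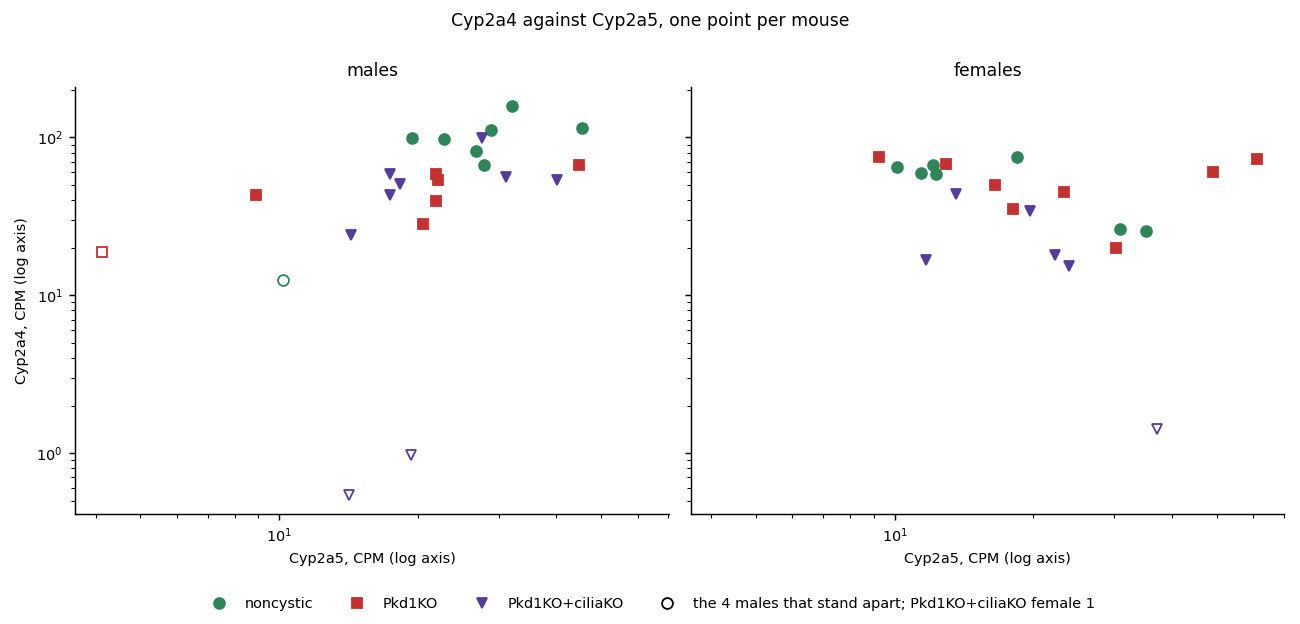
Cyp2a4 against Cyp2a5 in CPM (both axes log) in males and females, 1 point per mouse with genotype by symbol; open symbols are the 4 males that stand apart and Pkd1KO+ciliaKO female 1. Open triangles at 0.546, 0.965 and 1.43 CPM of Cyp2a4 lie far below all other mice, at Cyp2a5 levels inside the common range.

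Pkd1KO+ciliaKO female 1 differed from the other 5 females of its group in more than Cyp2a4. It had 498 CPM of Cyp4a10 against 144 to 181 in the others, 603 of Cyp4a14 against 127 to 155, 105 of Cyp4b1 against 23.1 to 33.6, and 244 of Cyp2e1 against 80.6 to 132. These were the highest Cyp4a10 and Cyp4a14 levels of all 45 mice.

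Between genotypes, none of the 10 genes passed the threshold in either sex with all mice. Each pair of genotypes was fitted by itself within a sex, over 15991 genes in males and 15968 in females. Between Pkd1KO and noncystic males edgeR called 0 of 10, where 6.3% of all genes were called, with 1 gene at an unadjusted p under 0.05, and DESeq2 called 0 and limma voom 1. Between Pkd1KO and Pkd1KO+ciliaKO males edgeR called 0 of 10 (3.77% of all genes), with 3 genes at an unadjusted p under 0.05, and DESeq2 called 1 and limma voom 2. Between Pkd1KO+ciliaKO and noncystic males edgeR called 0 of 10 (8.89% of all genes), with 1 gene at an unadjusted p under 0.05, and DESeq2 called 0 and limma voom 1.

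The male gene nearest to the threshold was Cyp4a14. It was at 7.84 to 72.2 CPM in noncystic, 8.74 to 44.9 in Pkd1KO and 16.6 to 162 in Pkd1KO+ciliaKO males, with medians of 14.7, 15.7 and 42.1. The ranges overlap, and the 2 highest mice were Pkd1KO+ciliaKO males 6 and 8. Between Pkd1KO and Pkd1KO+ciliaKO males the log2 fold change was -1.63 (standard error 0.466, adjusted p = 0.0601 from edgeR), and without the males that stand apart it was -0.93 (adjusted p = 0.179). Between Pkd1KO+ciliaKO and noncystic males it was 1.30 (adjusted p = 0.109) with all mice and 1.07 (adjusted p = 0.0409) without them.

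Cyp4a12a and Cyp7b1 had their highest medians in Pkd1KO males. For Cyp4a12a the medians were 67.8, 109 and 25.6 CPM in noncystic, Pkd1KO and Pkd1KO+ciliaKO males. Between Pkd1KO and Pkd1KO+ciliaKO males the log2 fold change was 1.74 (interval 0.12 to 3.36, adjusted p = 0.244 from edgeR) and, without the males that stand apart, 1.52 (adjusted p = 0.0686). Cyp7b1 ran from 29.6 to 124 CPM in Pkd1KO males (median 54.3) and from 1.61 to 54.3 in Pkd1KO+ciliaKO males (median 16.4), with a log2 fold change of 1.55 (interval 0.42 to 2.68, adjusted p = 0.134) and 1.34 (adjusted p = 0.0761) without them. The groups overlap for both genes, and against noncystic males neither gene passed in either genotype.

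Cyp2a4 had lower medians in both mutant genotypes than in noncystic males, and with edgeR the differences passed without the males that stand apart and not with all mice. With all mice the medians were 98.8 CPM in noncystic, 43.3 in Pkd1KO and 50.8 in Pkd1KO+ciliaKO males, and the log2 fold changes against noncystic males were -1.08 (standard error 0.372, adjusted p = 0.0983 from edgeR) and -1.11 (0.653, adjusted p = 0.312). Without the 4 males they were -1.10 (standard error 0.206, adjusted p = 0.00439) and -0.93 (0.234, adjusted p = 0.0148). The 4 males were set apart on these same data. They include the lowest Cyp2a4 of each group, at 12.5 CPM in noncystic, 18.9 in Pkd1KO and 0.546 in Pkd1KO+ciliaKO males. Leaving them out narrows the spread, so these fits are a description and not an independent test. The 7 remaining noncystic males had 66.4 to 157 CPM and the 6 remaining Pkd1KO males 28.2 to 66.7, so the ranges met only at the edge. Both comparisons share the noncystic males. Proximal tubule S1/S2 markers moved with this result: the 6 genes summed to a median of 10430.4 CPM in noncystic males (7315 to 11671), 8237 in Pkd1KO males (4848 to 10373) and 7393 in Pkd1KO+ciliaKO males (6383 to 9459.7), and their part in the result was not tested. Of these 6 genes 1 was called lower in Pkd1KO and 4 in Pkd1KO+ciliaKO males. One of the latter was Slc5a2, at a median of 81.6 CPM in noncystic and 3.1 in Pkd1KO+ciliaKO males. The 5 S3 markers did not fall in their sum in Pkd1KO males. Its medians were 3858 CPM in noncystic, 3975 in Pkd1KO and 2983 in Pkd1KO+ciliaKO males. Against noncystic males 1 of the 5 was called higher and 0 lower in Pkd1KO, and 0 were called in Pkd1KO+ciliaKO males.

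Without the 4 males, 2 further calls appeared between Pkd1KO+ciliaKO and noncystic males besides Cyp2a4. They were Cyp4b1, which was lower (log2 fold change -0.70, standard error 0.142, adjusted p = 0.00442 from edgeR), and Cyp4a14, higher as given above. The 7 remaining Pkd1KO+ciliaKO males had 543 to 996 CPM of Cyp4b1 and the 7 remaining noncystic males 914 to 1668. As for Cyp2a4, the males left out were picked from these data, so these calls are a description and not an independent test. Cyp2j5, Cyp2j13, Cyp2e1 and Cyp2d9 did not pass between any pair of male genotypes, with or without the 4 males.

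**Figure D4:**
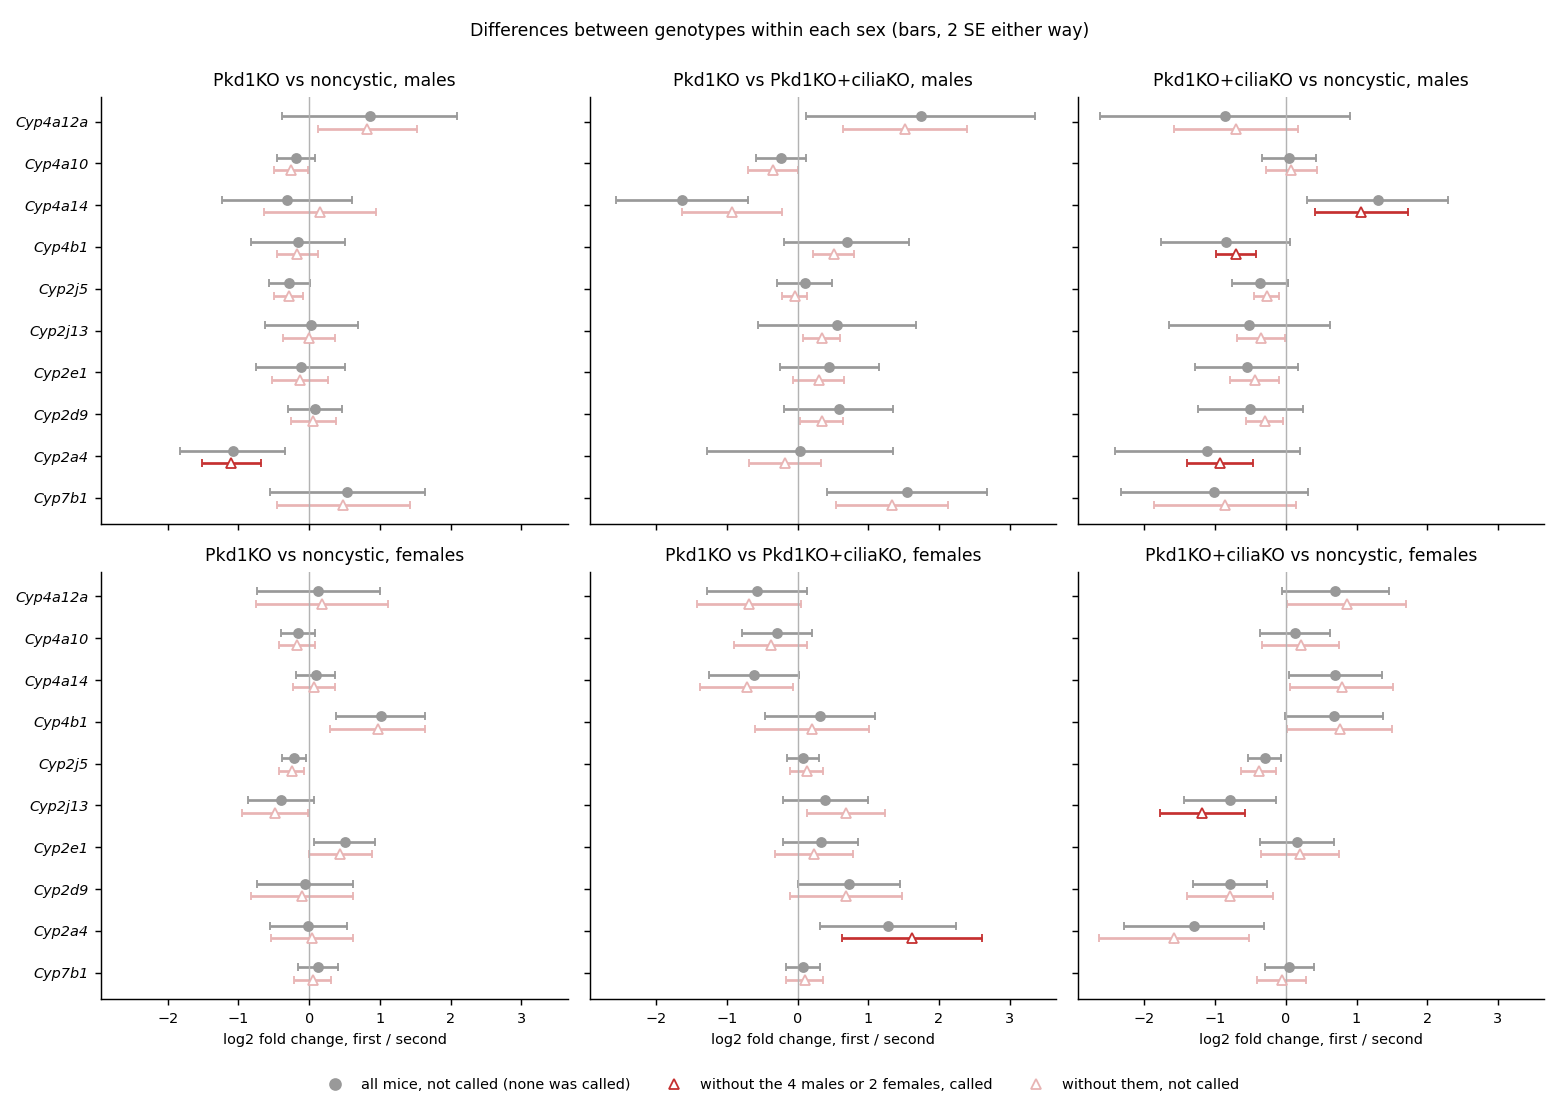
Log2 fold change of each gene (horizontal axis) between genotypes within males (top) and females (bottom), with bars of 2 standard errors either way; circles are fits of all mice and triangles are fits without the 4 males or the 2 females named in the text. No circle passes the threshold, and 6 triangles do: Cyp2a4 in 3 panels, and Cyp4a14, Cyp4b1 and Cyp2j13 in 1 panel each.

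In females edgeR called 0 of 10 between Pkd1KO and noncystic mice (3.34% of all genes), with 3 genes at an unadjusted p under 0.05 and no call by DESeq2 or limma voom. Between Pkd1KO and Pkd1KO+ciliaKO females it called 0 of 10 (11.7% of all genes), with 1 gene at an unadjusted p under 0.05 and again no call by the other tools. Between Pkd1KO+ciliaKO and noncystic females it called 0 of 10 (2.54% of all genes), with 4 genes at an unadjusted p under 0.05, and DESeq2 called 1 and limma voom 2. The first comparison holds 1 library that goes against its label, the second holds 1 and the third holds 2.

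Cyp4b1 was nearest to the threshold between Pkd1KO and noncystic females. It ran from 30.2 to 119.8 CPM in Pkd1KO females (median 38.9) and from 12.9 to 46.5 in noncystic females (median 23.7). Pkd1KO females 6 and 8, at 85.4 and 119.8 CPM, were the highest, and the groups overlap. The log2 fold change was 1.01 (standard error 0.313, adjusted p = 0.0917 from edgeR), and 1.20 (adjusted p = 0.0447) without noncystic female 4, the highest of its group. The direction was the opposite of that in males, where it was -0.16 (interval -0.82 to 0.51), and the difference between the sexes did not pass the interaction test (-1.17, adjusted p = 0.621).

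Cyp2a4 was lowest in Pkd1KO+ciliaKO females, at 1.43 to 43.9 CPM (median 17.5), beside up to 75.6 in Pkd1KO (median 55) and 25.5 to 75.2 in noncystic females (median 59.6). The highest mouse of the group was the library labelled Pkd1KO+ciliaKO female 6, whose Kif3a went against its label. Between Pkd1KO and Pkd1KO+ciliaKO females the log2 fold change was 1.28 (standard error 0.480, adjusted p = 0.093 from edgeR), 1.62 (adjusted p = 0.0489) without female 6, and 1.04 (adjusted p = 0.0503) without female 1. Between Pkd1KO+ciliaKO and noncystic females it was -1.30 (adjusted p = 0.15), -1.58 (adjusted p = 0.0959) without the 2 libraries against their labels and -1.06 (adjusted p = 0.0816) without female 1, and limma voom called it with all mice. Proximal tubule S3 markers moved in the same direction: their 5 genes summed to 820.4 to 1139 CPM in Pkd1KO+ciliaKO, 1168 to 2336 in Pkd1KO and 1059 to 1797 in noncystic females. Of the 5, 3 were called higher in Pkd1KO than in Pkd1KO+ciliaKO females (median log2 fold change 0.96) and 2 were called lower in Pkd1KO+ciliaKO than in noncystic females (-0.53), and their part in the result was not tested. The 6 S1/S2 markers moved less in these 2 comparisons. Their median log2 fold changes were 0.06 (1 called higher) and -0.14 (0 called).

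Cyp2d9 and Cyp2j13 did not pass with edgeR between Pkd1KO+ciliaKO and noncystic females with all mice, whereas DESeq2 and limma voom both called Cyp2d9. Cyp2d9 was at 5.42 to 13.9 CPM (median 6.4) beside 6.57 to 21.7 (median 11), a log2 fold change of -0.79 (adjusted p = 0.105 from edgeR), and -1.06 (adjusted p = 0.0323) without female 1, which had 13.9 CPM where the other 5 had 5.42 to 6.71. Cyp2j13 was at 0.215 to 1.05 CPM beside 0.53 to 1.34, a log2 fold change of -0.79 (adjusted p = 0.174), and -1.18 (adjusted p = 0.0361) without the 2 libraries against their labels. Its female level is low, with about 1 CPM or less. Cyp4a10, Cyp4a12a, Cyp4a14, Cyp2e1, Cyp2j5 and Cyp7b1 did not pass between any pair of female genotypes in any fit described here. Cyp7b1 was at 1.31 to 2.85 CPM over all 21 females, and its 3 intervals stayed within -0.29 to 0.42.

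Near relatives did not always follow their member. Cyp4a12b was at 0.456 to 9.51 CPM in noncystic males and 0.289 to 0.746 in noncystic females, with a log2 fold change of 3.00 (adjusted p = 4.58e-05 from edgeR) where that of Cyp4a12a was 8.56. Pkd1KO male 4 had 12.2 CPM of Cyp4a12b, above all noncystic males, with the lowest Cyp4a12a of its group. Cyp2d26, a relative of Cyp2d9, ran the other way, with 40.4 to 62.7 CPM in noncystic males, 92 to 158 in noncystic females and a log2 fold change of -1.33 (adjusted p = 3.94e-07). Cyp2j11 was at 147 to 184 CPM in noncystic males and 116 to 146 in noncystic females, with a log2 fold change of 0.34 (adjusted p = 0.00183), so the large sex difference of Cyp2j13 was not seen in this neighbouring gene. Per length, Cyp4a31 had a median of 255 TPM (150.3 to 277) in noncystic males beside 234 (183 to 349) for Cyp4a10, and Cyp2d10, Cyp2d11 and Cyp2j8 were at no more than 0.322 CPM in any mouse.

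Of the other Cyp genes, 51 were tested between noncystic males and females, and 9 were higher and 7 lower in males, near the 15.2% and 12.1% of all genes, with a median log2 fold change of -0.07. After Cyp2d26, Cyp4f14, which hydroxylates leukotriene B4, had the smallest p (log2 fold change -1.34, adjusted p = 4.21e-05 from edgeR). Between genotypes, 2 of 49 other Cyp genes were called in each of the 3 male comparisons (6.3%, 3.77% and 8.89% of all genes in Pkd1KO with noncystic, Pkd1KO with Pkd1KO+ciliaKO and Pkd1KO+ciliaKO with noncystic mice), and 2, 6 and 0 of 48 (3.34%, 11.7% and 2.54% of all genes) in the female comparisons of Pkd1KO with noncystic, Pkd1KO with Pkd1KO+ciliaKO and Pkd1KO+ciliaKO with noncystic mice. Cyp46a1, the cholesterol hydroxylase known from brain, was lower in Pkd1KO than in noncystic mice by a log2 fold change of -1.23 in males (adjusted p = 0.00939) and -0.96 in females (adjusted p = 0.00647). It was also lower in Pkd1KO than in Pkd1KO+ciliaKO mice. In males the log2 fold change was -0.73 (adjusted p = 0.043 from edgeR). It did not pass without the males that stand apart (-0.58, adjusted p = 0.127). With single mice left out it passed in only 3 of 16 male fits. In females it was -0.70 (adjusted p = 0.0251 from edgeR). It did not pass without the library against its label (-0.63, adjusted p = 0.0562). With single mice left out it passed in 11 of 14 female fits. Within each sex these comparisons share the Pkd1KO mice.

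Electron donors and haem synthesis genes passed the test in some comparisons between genotypes. Of 7 redox and haem genes, 2 fell in Pkd1KO+ciliaKO against noncystic males, where 8.89% of all genes were called: Alas1, the first enzyme of haem synthesis, with a log2 fold change of -0.77 (adjusted p = 0.00275 from edgeR), and Por with one of -0.65 (adjusted p = 0.00374). Por was at 181 to 355 CPM in noncystic males and 123 to 196 in Pkd1KO+ciliaKO males. The S1/S2 markers, 4 of 6 called lower (median log2 fold change -0.50), moved in the same comparison, and their part in the result was not tested. Among these 4 markers Slc5a2 fell most, by a log2 fold change of -4.48 (adjusted p = 1.51e-12 from edgeR). The other called markers were Slc5a12 at -0.62, Cubn at -0.50 and Lrp2 at -0.49. In Pkd1KO against Pkd1KO+ciliaKO females, where 11.7% of all genes were called, 3 of the 7 were higher, Alas1 by 0.67 (adjusted p = 0.0157), Por by 0.49 (adjusted p = 0.018) and Cyb5a by 0.26 (adjusted p = 0.0381). These 5 calls passed also without the libraries that stand apart or go against their labels, and with single mice left out Cyb5a passed in 6 of 14 fits. None of the 7 passed between Pkd1KO and noncystic mice of either sex. The median log2 fold change of the list was -0.21 in the first of these comparisons and 0.14 in the second, beside 0.01 and -0.01 for all genes tested. In Pkd1KO+ciliaKO against noncystic females, where 2.54% of all genes were called, 2 of the 7 were lower (median log2 fold change -0.23). Cyb5a was among them, with -0.25 (adjusted p = 0.0448 from edgeR). It passed also without the 2 libraries against their labels (adjusted p = 0.0276), and in 4 of 13 fits with a mouse left out.

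Of 16 arachidonate enzymes and receptors, 2 were higher and 4 lower in noncystic males than in noncystic females, beside 15.2% and 12.1% of all genes, so the share called higher was below that of all genes. Ephx2, the soluble epoxide hydrolase that breaks down the products of Cyp2j enzymes, was at 292 to 662 CPM in males and 147 to 187 in females (log2 fold change 1.77, adjusted p = 8.15e-08 from edgeR). Hpgd, which inactivates prostaglandins, was lower in males (log2 fold change -1.58, adjusted p = 8.83e-07). Hpgd was also the called gene of this list in Pkd1KO against Pkd1KO+ciliaKO mice of both sexes, higher by 0.62 in males (adjusted p = 0.0413) and by 1.27 in females (adjusted p = 0.00756). In females Ptgs2 was lower in the same comparison (log2 fold change -1.16, adjusted p = 0.0441), a call kept in 3 of 14 fits with a mouse left out, and the male call of Hpgd was kept in 4 of 16.

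Of 14 Ppara targets other than Cyp4a genes, 7 were higher in noncystic males and none lower, where 15.2% of all genes were called higher and 12.1% lower, and the median log2 fold change was 0.23. Ppara itself was at 94.2 to 139 CPM in noncystic males and 90.5 to 156 in noncystic females. Cyp4a14 was higher in females, so it did not share the direction of these 7. In males, 2 of the 14 fell in Pkd1KO against noncystic mice (Cpt2 and Cpt1a), where 6.3% of all genes were called, and 3 fell in Pkd1KO+ciliaKO against noncystic mice, where 8.89% were. Without the males that stand apart Cpt2 no longer passed in the first (adjusted p = 0.0632 from edgeR), and with single mice left out Cpt1a passed there in 9 of 15 fits.

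All 7 tubule genes listed as male-biased, a list chosen with these data known, were higher in noncystic males, with a median log2 fold change of 5.02, and 3 of 4 female-biased genes were lower. Between genotypes, Gusb, an androgen-responsive gene, was higher in Pkd1KO than in Pkd1KO+ciliaKO males by 0.89 (adjusted p = 0.00671 from edgeR). In that comparison 3.77% of all genes were called. Gusb was also lower in Pkd1KO+ciliaKO than in noncystic males (log2 fold change -0.81, adjusted p = 0.0153), where 8.89% were called. In each of these 2 comparisons 1 of the 7 genes was called, and both share the Pkd1KO+ciliaKO males. Kap, an androgen-responsive gene of the proximal tubule, was lower in Pkd1KO+ciliaKO than in noncystic females (log2 fold change -1.14, adjusted p = 0.036), and 1 of the 7 genes was called in that comparison. Of 16 nuclear and hormone receptors, 3 were lower in that comparison, with log2 fold changes of -0.71 for Ghr (adjusted p = 0.0211), -0.35 for Hnf4a (adjusted p = 0.0295) and -0.48 for Nr1h3 (adjusted p = 0.036), where 2.54% of all genes were called. Kap, Ghr, Hnf4a and Nr1h3 also passed without the 2 libraries against their labels (adjusted p = 0.0126, 0.00761, 0.0264 and 0.0219 from edgeR). With single mice left out they passed in 6, 10, 7 and 6 of 13 fits, and each call was lost without Pkd1KO+ciliaKO female 2, 3 or 4.

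The genes most alike to each enzyme over the 45 mice were named by Pearson's r of log2 CPM, a description that holds the sex difference shared by many genes. Cyp4a12a was most like the organic anion transporter Slco1a1 (r = 0.982) and Acsm3 (0.981), and Cyp2j13 most like the amino acid transporter Slc7a13 (0.989) and Slco1a1 (0.982). Cyp4b1 went with Pzp (0.977) and Mogat1 (0.973), and Cyp2e1 with Ephx2 (0.972) and Pzp (0.970). Cyp2j5 went with the organic cation and urate transporters Slc22a2 (0.968) and Slc22a12 (0.958), Cyp2d9 with Treh (0.949) and Ttc39c (0.938), and Cyp7b1 with Lipo2 (0.957) and Tmprss9 (0.953). Cyp2a4 had its own neighbours, Slc22a7 (0.929) and Prok1 (0.915), and so had Cyp4a14, with Kcnip2 (0.916) and Rrad (0.908). Cyp4a10, with the smallest log2 fold change between noncystic males and females of the 10 genes, had the weakest matches, Btg3 (0.709) and Retreg1 (0.691).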

How the data were processed

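Kidney tubule mRNA was recovered by TRAP and libraries were made with ribosomal RNA depletion and sequenced in pairs. Per the labels, trimming by the authors used fastp 0.20.0, alignment to GRCm38.p6 used STAR 2.7.9, and fragments over exons were counted by featureCounts 2.0.0. The authors deposited raw counts per gene, one table per sex, and TPM for the genes past their own filter in that sex, with protein-coding genes kept. The strand setting and the treatment of reads that map to several genes are not given in the sources used here.

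Groups came from the labels. Genes entered a test when protein-coding and at 6 or more counts in 20% of the mice. They were tested with the quasi-likelihood test of edgeR 4.0.16 (R 4.3.3, TMM scaling), each pair of genotypes by itself within a sex and males against females within a genotype, with p-values adjusted by Benjamini-Hochberg over all genes tested and a threshold of 0.05. CPM were TMM-scaled over 45 mice and serve as levels within a gene. TPM were used for levels between genes. Standard errors beside edgeR results were derived as the size of the log2 fold change divided by the square root of the F statistic. Intervals are 2 such standard errors either way. They are approximate, and near the threshold they can differ from the p-value of the test. The tests were checked on simulated data. The lowest chi-square per degree of freedom between any 2 mice of a group was 53.6 over 149 pairs, so every pair differed beyond sampling noise.

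The 10 genes and all gene lists were chosen with earlier results of these data known. The text names all 10 genes, their near relatives, up to 2 other called Cyp genes and up to 3 called genes of each list per comparison by the smallest p, Kif3a, markers, and the 2 genes most alike to each member. Levels of Ppara were added after their values were seen. Some genes of the lists are not reported here. Symbols and coordinates came from GENCODE vM21. Alternatives were DESeq2 1.42.0, limma 3.58.1 (voom with sample quality weights, and log2 TPM with a pseudocount of 1 or 0.1), other size factors, no filter, all annotated genes, 1 shared fit, summed near relatives, a replicate block, and fits without single mice, without the 4 males or without the 2 females. Leaving out these 6 together, and leaving out mice for genes other than the 10, were added after seeing the data. The 4 males and the 2 females were themselves picked from these data.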

Additional observations from a re-analysis of the deposited data

Results flagged for a closer look

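In 60 groups of 6 to 9 mice (10 genes in 6 groups), 9 had a highest mouse far from the rest by Dixon's criterion. Chance flags about 1 in 20 groups when values are normally distributed and groups are independent. Here the 10 genes share the same mice, so that rate is only a guide. Of these, 5 were in Pkd1KO+ciliaKO female 1: Cyp4a10 at 498 CPM (next mouse 181), Cyp4a14 at 603 (155), Cyp4b1 at 105 (33.6), Cyp2e1 at 244 (132) and Cyp2d9 at 13.9 (6.71). The other 4 were Cyp4a10 in Pkd1KO female 8 at 268 CPM (195), Cyp4a12a in Pkd1KO+ciliaKO male 2 at 119 (58.9), Cyp4a14 in Pkd1KO male 3 at 44.9 (22.4) and Cyp7b1 in Pkd1KO male 1 at 124 (68.1). None was in the 4 males that stand apart. The criterion uses the gap to the nearest mouse, so it could not flag Pkd1KO+ciliaKO males 6 and 8 where they lie together. Their Cyp4b1 levels of 77.3 and 79.1 CPM are such a case.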

How the results depend on the processing

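Of 1157 values of single genes under an alternative, 1134 kept their side of the threshold and 23 passed it newly, and no called value changed sign. The number of the 10 genes called stayed at 0 in the 6 genotype comparisons except as follows. In Pkd1KO against noncystic males it was 1 with limma voom and 1 without the 4 males, both Cyp2a4. In Pkd1KO against Pkd1KO+ciliaKO males it was 1 with DESeq2 (Cyp4a14) and 2 with limma voom (Cyp4a14 and Cyp7b1). In Pkd1KO+ciliaKO against noncystic males it was 1 with limma voom, 1 with the replicate block and 3 without the 4 males. In Pkd1KO against Pkd1KO+ciliaKO females it was 1 with near relatives summed and 1 without the library that goes against its label, both Cyp2a4. In Pkd1KO+ciliaKO against noncystic females it was 1 with DESeq2 (Cyp2d9), 2 with limma voom (Cyp2d9 and Cyp2a4), 1 with near relatives summed (Cyp2a4) and 1 without the 2 libraries against their labels (Cyp2j13). Leaving out single mice gave 0 to 1 in each of the 6. The mice that decided it were noncystic male 3 (Cyp2a4, -1.24, adjusted p = 0.0068 from edgeR, against Pkd1KO, and Cyp4a14, 1.79, adjusted p = 0.0154, against Pkd1KO+ciliaKO), Pkd1KO male 3 (Cyp4a14, -1.98, adjusted p = 0.0286), Pkd1KO+ciliaKO male 9 (Cyp4a14, -1.73, adjusted p = 0.0386), noncystic female 4 (Cyp4b1) and Pkd1KO+ciliaKO females 6 (Cyp2a4) and 1 (Cyp2d9). The sex counts ran from 7 to 9 and the interaction counts stayed at 0. DESeq2 gave no adjusted p for Cyp4a14 between Pkd1KO+ciliaKO males and females. Same-numbered mice did not deviate together (r from -0.32 to 0.36 over the 6 comparisons), so the replicate number is not a pairing. With it as a block Cyp4a14 was 1.55 (adjusted p = 0.0443) between Pkd1KO+ciliaKO and noncystic males and Cyp4a10 was -0.31 (adjusted p = 0.0423) between noncystic males and females. Counts over all genes moved more than those of the 10: 1008 became 1640 with DESeq2, 625 with log2(TPM + 1) and 669 with log2(TPM + 0.1) in Pkd1KO against noncystic males. In Pkd1KO against Pkd1KO+ciliaKO males 603 became 1234 with DESeq2, 1389 with voom, 929 in 1 fit of 3 genotypes and 170 with the block. In Pkd1KO+ciliaKO against noncystic males 1422 became 2157, 2803 and, with the block, 764, and 2240 without the 4 males (2359 without noncystic male 3). In females 533 became 962 with DESeq2, 809 with voom, 294 with the block and 349 without noncystic female 6 for Pkd1KO against noncystic, and 1869 became 612 with the block and 1241 without Pkd1KO+ciliaKO female 3 for Pkd1KO against Pkd1KO+ciliaKO. For Pkd1KO+ciliaKO against noncystic females 405 became 1280 with DESeq2, 1357 with voom, 1000 and 1007 with log2 TPM, 100 with the block, 926 without the 2 libraries, and 8 without Pkd1KO+ciliaKO female 2 or 3, 13 without female 4, 86, 101, 89 and 104 without noncystic female 2, 3, 6 and 7, and 746 without noncystic female 5. Between Pkd1KO+ciliaKO males and females 2348 became 6650 with voom, 5531 without the 4 males and 5135 without the 6 libraries. The interaction counts over all genes were 2, 36 and 5 and went to 0 and 21 for the first and last without the 4 males, 1 and 2 without the 2 females and 0 and 17 without all 6. With log2(TPM + 0.1) the median of all genes shifted to -0.112, -0.102 and 0.127 in 3 comparisons. The cause of these changes was not tested.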
